A study of Mus musculus with 18 samples.

Results

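The unpaired Wnt genes examined are the 10 mouse genes Wnt2, Wnt2b, Wnt4, Wnt5a, Wnt5b, Wnt7a, Wnt7b, Wnt8a, Wnt8b and Wnt11, which lie apart from every other Wnt gene. The other 8 Wnt genes examined lie in pairs of neighbours: Wnt1 with Wnt10b, Wnt3 with Wnt9b, Wnt3a with Wnt9a, and Wnt6 with Wnt10a. The members were chosen by name from 21900 protein-coding genes. No measured value entered the rule, but earlier results of these data were known. At each gene, peaks of the histone mark H3K27me3 were taken where they overlapped the gene span extended by 1 kb at each end. A gene with such a peak is called marked, and its coverage is the percent of the extended span that lay under peaks.

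H3K27me3 was profiled by CUT&Tag, in which an antibody brings a DNA-cutting transposase to the mark, in mouse headfolds at embryonic day 8.5. The headfold is the front of the embryo that forms the brain. All embryos were Gulo-/-, and so could make no vitamin C, for which the enzyme encoded by Gulo is required. They were on a 129 or a B6 background, and their mothers drank water with vitamin C at 3.3 g/l or received none, which gave 4 groups of 3 libraries, each from 2 female embryos and 1 male. Each reaction held the dissociated and frozen cells of 1 headfold, so fewer cells with the mark and less of the mark per cell cannot be told apart. The study asked how maternal vitamin C deficiency and genetic background affect the embryo.

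Wnt proteins are secreted, lipid-modified signals that bind Frizzled receptors. With the co-receptors Lrp5 and Lrp6 they stabilise β-catenin, which enters the nucleus and activates target genes with Tcf and Lef factors, while other Wnt signals act on cell polarity and movement without β-catenin. H3K27me3 is laid down by Polycomb repressive complex 2, typically over CpG-rich start sites of developmental genes that are silent or poised in at least some of the cells. In the early head, Wnt signals pattern the brain from back to front and along its upper edge, and several Wnt genes are restricted to small domains.

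The sequences just before the start sites of 4 members are shown, 3 of which mostly had the mark over the start (Wnt2b, Wnt7a and Wnt11) and 1 of which mostly had it far from the start (Wnt8b). Each run holds the 250 bases before the listed start, from RefSeq on GRCm38.p6, written 5′ to 3′ on the gene's own strand, with CpG dinucleotides in capitals. The windows lie at chr3:104961710-104961959 (Wnt2b, minus strand), chr6:91411354-91411603 (Wnt7a, minus strand), chr7:98834862-98835111 (Wnt11, plus strand) and chr19:44493222-44493471 (Wnt8b, plus strand). They hold 36, 34, 37 and 5 CpG dinucleotides, in that order.
Wnt2b: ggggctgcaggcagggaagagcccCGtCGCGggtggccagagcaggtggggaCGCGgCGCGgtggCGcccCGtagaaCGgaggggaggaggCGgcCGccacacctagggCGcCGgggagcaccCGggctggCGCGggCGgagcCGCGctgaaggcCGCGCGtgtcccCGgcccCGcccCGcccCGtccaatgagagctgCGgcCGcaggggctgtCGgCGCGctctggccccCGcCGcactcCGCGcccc
Wnt7a: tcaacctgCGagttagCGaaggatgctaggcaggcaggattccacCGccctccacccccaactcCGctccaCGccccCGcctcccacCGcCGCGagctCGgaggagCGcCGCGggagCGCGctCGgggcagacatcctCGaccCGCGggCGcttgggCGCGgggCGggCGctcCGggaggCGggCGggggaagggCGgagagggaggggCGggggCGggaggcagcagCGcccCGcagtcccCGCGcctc
Wnt11: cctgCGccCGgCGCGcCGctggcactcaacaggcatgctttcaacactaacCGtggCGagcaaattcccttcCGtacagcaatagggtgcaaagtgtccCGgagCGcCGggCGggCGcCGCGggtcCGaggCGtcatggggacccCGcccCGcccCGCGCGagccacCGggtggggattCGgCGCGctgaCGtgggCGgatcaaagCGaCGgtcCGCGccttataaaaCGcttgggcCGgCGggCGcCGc
Wnt8b: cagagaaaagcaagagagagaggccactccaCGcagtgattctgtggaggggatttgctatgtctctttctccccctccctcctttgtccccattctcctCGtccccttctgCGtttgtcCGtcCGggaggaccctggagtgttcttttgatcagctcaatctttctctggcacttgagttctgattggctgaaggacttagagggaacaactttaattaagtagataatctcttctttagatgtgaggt

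The peak lists themselves differed widely between libraries. They held 748 to 4726 peaks, which covered 3.58 to 31.7 Mb, and the median peak width ran from 1.32 to 8.45 kb. The median widths averaged 7.49 ± 1.15 kb (SD, n = 3) in 129 with vitamin C, 5.67 ± 1.38 kb in 129 without, 3.34 ± 1.71 kb in B6 with and 3.57 ± 1.96 kb in B6 without. Replicate 2 of B6 with vitamin C and replicate 1 of B6 without stood apart with median widths of 1.41 and 1.32 kb. Library numbers ran with the background, so a difference between backgrounds and one between library sets cannot be told apart. The 3 B6 embryos with vitamin C carry 1 shared pregnancy code in the labels, read here as 1 litter, whereas the codes within every other group differ. Read numbers are not part of the lists, so the depth behind each list is unknown, and a missing peak says only that none was called.

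Every member was marked in some library, and the number of marked members per library ran from 4 to 10, with a median of 7.5. All 10 carried a peak in at least 2 libraries, where 15.8% of all protein-coding genes did. At least 10 libraries marked 6 of the 10 members (Wnt2, Wnt2b, Wnt7a, Wnt7b, Wnt8b and Wnt11), beside 5.93% of all genes. All 12 libraries marked Wnt7b and Wnt11, that is 2 of 10, beside 2.18% of all genes. All 10 members were marked in replicate 3 of 129 without vitamin C and in replicate 4 of B6 with vitamin C. The fewest, 4, were marked in replicate 2 of B6 without vitamin C, which also had the shortest list.

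**Figure D1:**
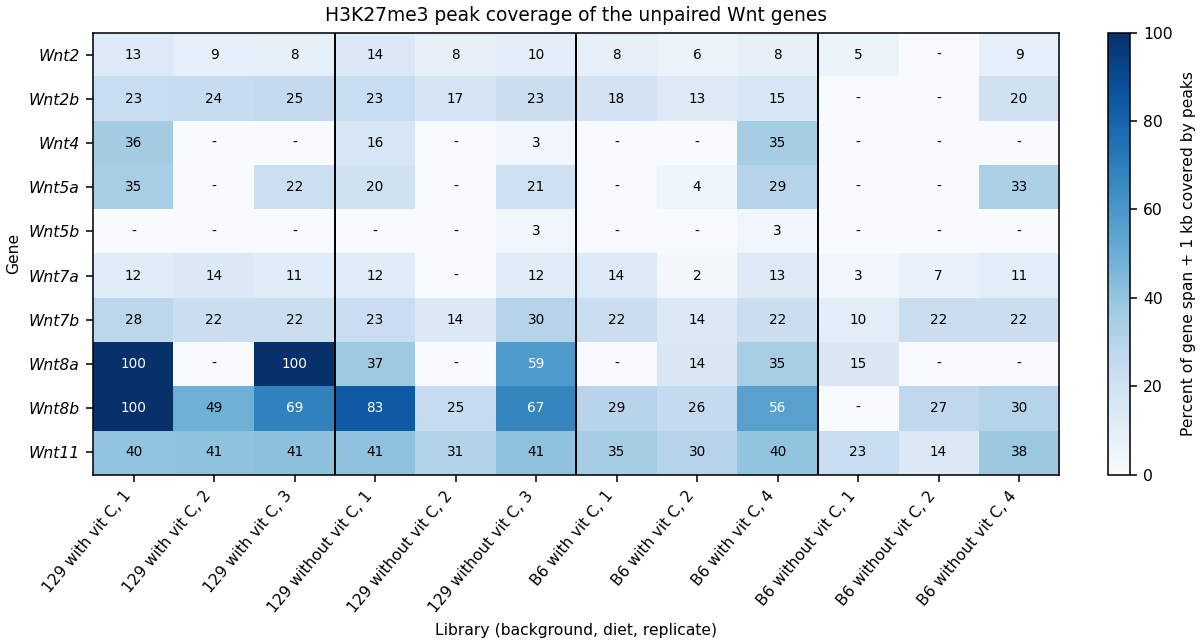
Percent of each gene span plus 1 kb at each end that lay under H3K27me3 peaks, for the 10 genes (rows) in the 12 libraries (columns, by background, diet and replicate), as shades and rounded values, with a dash for no peak. Wnt7b and Wnt11 have a value in every column, and Wnt5b has a value in 2.

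Among the members best known for signalling through β-catenin, Wnt7b, a signal for growth of the lung and of brain vessels (chr15:85535437-85581821), was marked in all 12 libraries. Its coverage was 27.8%, 21.9% and 21.9% in 129 with vitamin C, 22.7%, 14.0% and 30.0% in 129 without, 22.1%, 13.9% and 22.0% in B6 with, and 10.4%, 22.1% and 21.9% in B6 without. The 4 groups overlapped, and 7 of the 12 values lay between 21.9% and 22.7%. The mark sat at the gene's end of higher coordinate in every library. The strongest peak there began 33.9 to 42.4 kb and ended 43.0 to 51.2 kb from the end of lower coordinate, in a gene of 46.4 kb. In 10 libraries the strongest peak also reached AU022754, a long non-coding RNA gene that overlaps that end, and in replicate 1 of B6 without vitamin C a weaker peak did. In replicate 3 of 129 without vitamin C a second peak lay at the other end, and it ranked low in its list, at a percentile of 10.6 for total signal.

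Wnt7a, which patterns limbs and the female reproductive tract (chr6:91363981-91411353), was marked in 11 libraries. Its coverage was 11.6%, 14.0% and 11.3% in 129 with vitamin C, and 11.6%, 0% and 11.9% in 129 without. In B6 it was 13.6%, 1.78% and 12.8% with vitamin C, and 2.79%, 6.84% and 10.7% without. Thus 8 libraries sat between 10.7% and 14.0%, and the low values came from 4 libraries, 2 of which are those with the shortest median peak widths. The strongest peak covered the start site in 9 of 11 libraries and ran over a median span from 6.77 kb before it to 4.73 kb after it. In 10 libraries the peaks also reached Gm30437, a long non-coding RNA gene next to the start.

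Wnt8b, a marker of the forebrain (chr19:44493472-44514273), was the member with the highest mean coverage, at 46.8% ± 29.0 (SD, n = 12). The coverage was 100%, 49.1% and 68.6% in 129 with vitamin C, 83.3%, 24.9% and 67.2% in 129 without, 29.4%, 25.7% and 55.7% in B6 with, and 0%, 26.8% and 30.2% in B6 without. Every 129 library but replicate 2 without vitamin C was at or above 49.1%, while B6 reached this level only in replicate 4 with vitamin C. The mark lay in a place unlike that of the members with peaks at the start. The strongest peak began a median of 11.0 kb and ended a median of 25.9 kb after the start, which is past the end of this 20.8 kb gene, and its point of maximum signal fell 16.4 to 20.9 kb after the start in all 11 libraries. It covered the start in 1 of 11 libraries, replicate 1 of 129 with vitamin C, where a 30.4 kb peak covered the whole gene. A separate peak over the start was called in replicate 1 of 129 without vitamin C and in replicate 4 of B6 with it, at percentiles of 10.4 and 11.2 for total signal in their lists. In 7 libraries the strong peak also reached Sec31b, the neighbouring gene for a coat protein of transport vesicles, so that this mark cannot be assigned to Wnt8b alone.

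Wnt2 (chr6:17985474-18032772), which acts in growth of the lung, the placenta and the heart field, was marked in 11 libraries. Its coverage was 13.3%, 9.23% and 8.22% in 129 with vitamin C, 13.9%, 7.85% and 9.57% in 129 without, 7.90%, 5.61% and 7.93% in B6 with, and 5.22%, 0% and 8.96% in B6 without. The lowest 129 value lay just below the 3 highest B6 values, so the backgrounds overlapped by a narrow margin. The strongest peak covered the start in all 11 libraries, over a median span from 2.73 kb before to 1.29 kb after it, and left the rest of the 47.3 kb gene free of peaks.

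Wnt2b (chr3:104944805-104961709), which together with Wnt2 specifies the lung and is active in the eye, was marked in 10 libraries. Its coverage was steady in 129 with vitamin C, at 23.3%, 23.8% and 25.3%, and was 23.3%, 16.7% and 22.5% in 129 without. In B6 it was 18.0%, 12.5% and 15.4% with vitamin C, and 0%, 0% and 19.8% without. Of the 6 B6 libraries, 4 lay below every 129 library, and 2 exceeded only replicate 2 of 129 without vitamin C. The strongest peak covered the CpG-rich start shown above in 9 of 10 libraries and ended 1.91 to 3.79 kb into the gene.

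Wnt8a (chr18:34542327-34548061), which acts in the primitive streak and early hindbrain, spans only 5.74 kb, so that a single peak can cover all of it. Its coverage was 100%, 0% and 100% in 129 with vitamin C, 37.2%, 0% and 58.9% in 129 without, 0%, 14.1% and 34.5% in B6 with, and 14.8%, 0% and 0% in B6 without. Values of 0 occurred in all 4 groups, and the 7 marked libraries were spread over all 4. In 5 of the 7 the peak was 6.90 to 14.7 kb wide, and in the libraries with the shortest median widths it was 1.09 and 1.14 kb wide. The point of maximum signal fell 5.11 to 7.96 kb from the end of lower coordinate, near the end of higher coordinate.

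Of the members best known for signalling without β-catenin, Wnt11, a signal for cell movement and heart formation (chr7:98835084-98854747), was marked in all 12 libraries. Its coverage was 40.4%, 40.8% and 41.4% in 129 with vitamin C, 40.8%, 31.1% and 41.1% in 129 without, 35.3%, 30.1% and 40.1% in B6 with, and 23.2%, 14.1% and 37.8% in B6 without. The libraries of 129 with vitamin C differed by an SD of 0.513 percentage points, and those of B6 without by 12.0. The strongest peak covered the first listed start in 11 of 12 libraries and ended at a median of 7.41 kb into the gene, past the second listed start. All 12 libraries had a peak that also reached Gm33770, a long non-coding RNA gene overlapping the start.

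Wnt5a (chr14:28504543-28527448), which directs outgrowth of limbs, face and tail, was marked in 7 libraries. Its coverage was 34.6%, 0% and 21.8% in 129 with vitamin C, 19.8%, 0% and 20.5% in 129 without, 0%, 4.20% and 29.4% in B6 with, and 0%, 0% and 33.0% in B6 without. Each group held at least 1 value of 0, and the highest values of the 4 groups lay between 20.5% and 34.6%. The point of maximum signal was confined to a stretch of less than 1 kb in the 7 marked libraries, 4.50 to 5.29 kb from the end of lower coordinate.

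Wnt4 (chr4:137277635-137299501), needed for kidney tubules and the female gonad, was marked in 4 libraries. Its coverage was 35.6% in replicate 1 of 129 with vitamin C, 16.1% and 3.36% in replicates 1 and 3 of 129 without, 35.2% in replicate 4 of B6 with, and 0% in the 8 others. The peak covered the start in 3 of these 4 libraries and in the other ended at -0.199 kb from it, that is before it.

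Wnt5b (chr6:119432531-119544824), close in sequence to Wnt5a and active in cartilage, was marked in 2 libraries, at 3.49% in replicate 3 of 129 without vitamin C and 3.41% in replicate 4 of B6 with. These are the 2 libraries that marked all 10 members. In both the peak covered the outermost listed start and reached Gm52875, a predicted protein-coding gene whose higher end coincides with that start, while the 2 inner starts lay outside any peak.

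**Figure D2:**
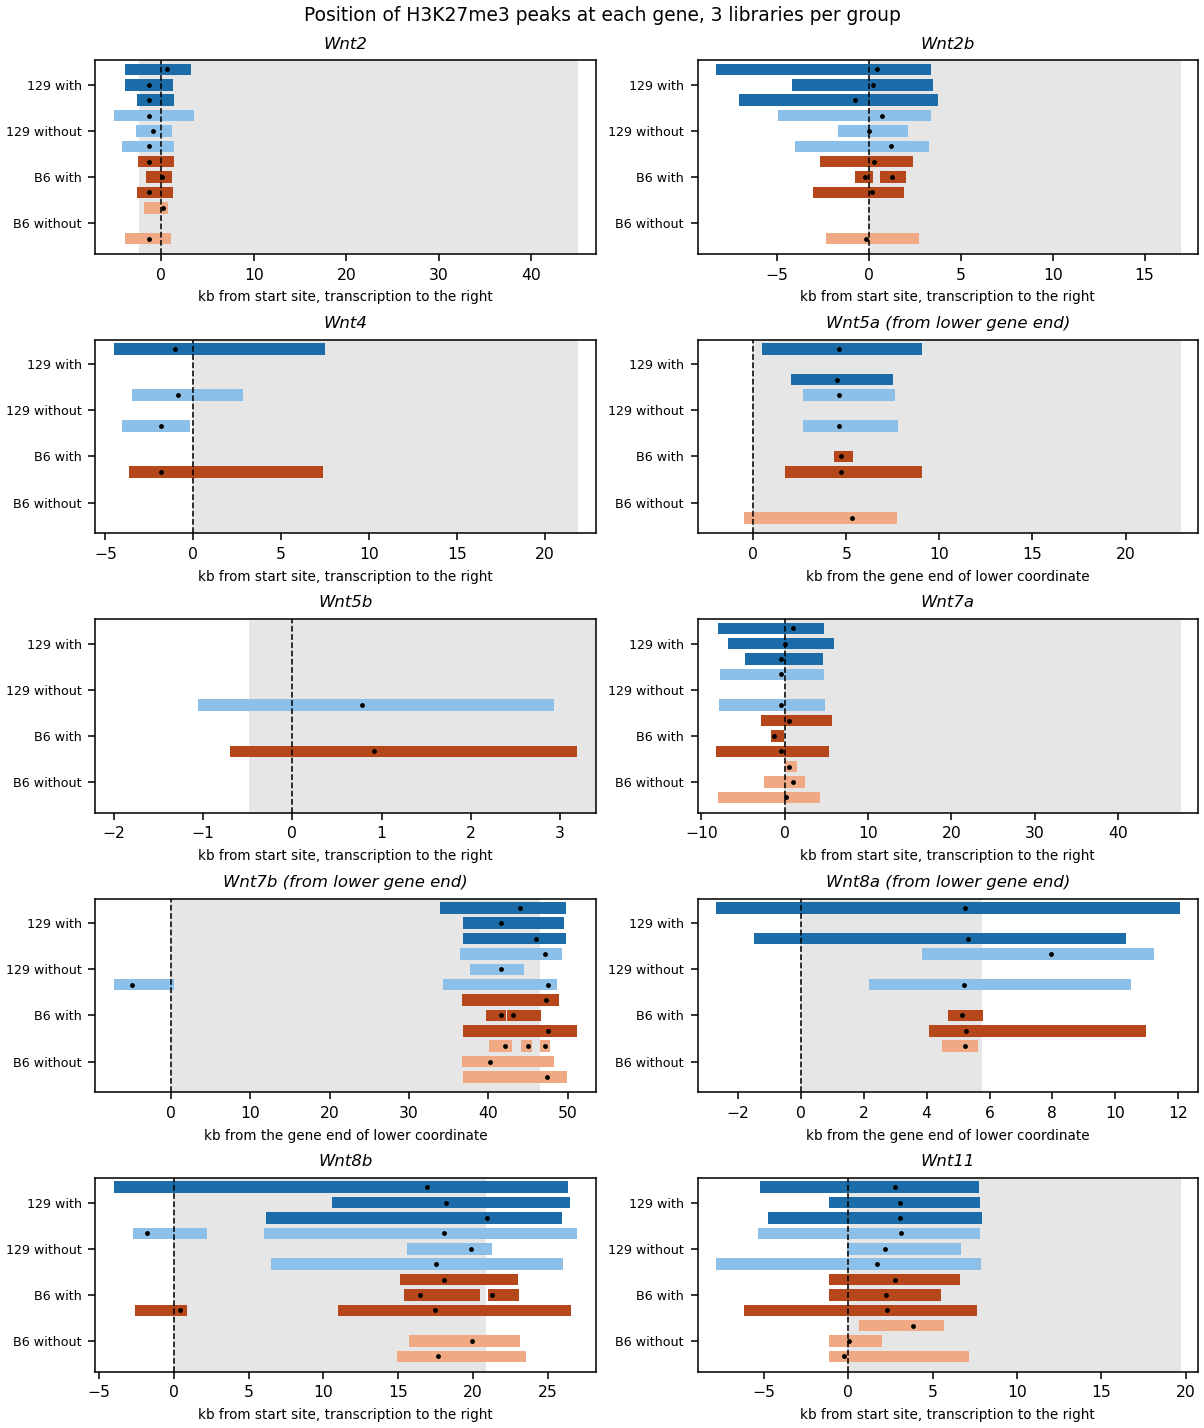
Position of every H3K27me3 peak at each gene, with 1 row per library in groups of 3 (colours) and a black dot at the point of maximum signal. The x axis is distance in kb from the start site (dashed line), or from the end of lower coordinate for Wnt5a, Wnt7b and Wnt8a, grey marks the gene (Wnt5b runs on beyond the right edge), and the peaks of Wnt8b lie mostly 11.0 to 25.9 kb past the start.

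Ordered by mean coverage, the members ran from Wnt8b over Wnt11 (34.7% ± 8.66, SD, n = 12), Wnt8a (30.0% ± 37.8), Wnt7b (20.9% ± 5.62), Wnt2b (16.7% ± 8.71), Wnt5a (13.6% ± 14.2), Wnt7a (9.07% ± 4.93), Wnt2 (8.15% ± 3.64) and Wnt4 (7.52% ± 13.8) to Wnt5b (0.575% ± 1.34). Of the 9 pairs of neighbours in this order, 0 differed by more than the SD of their difference across libraries. Wnt8b exceeded Wnt11 in 7 of 12 libraries, by a mean of 12.1 percentage points with an SD of 23.7. Coverage depends on gene length, so the ranks of signal, which do not use the span, gave another order.

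Each list gives a total signal per peak, which is the authors' value and was used here only to rank peaks within the list. The strongest peak at Wnt11 stood at a median percentile of 92.8 among the peaks of its library, that at Wnt7b at 92.2 and that at Wnt8b at 91.1. Wnt7a followed at 83.8, Wnt2 at 72.0, Wnt8a at 71.7 and Wnt2b at 65.3. The lowest medians were 48.2 for Wnt4, 26.2 for Wnt5a and 12.3 for Wnt5b. Ranked by maximum signal instead, the same peaks gave another order. Their medians were 87.5 for Wnt11, 80.9 for Wnt7b, 78.4 for Wnt2, 75.1 for Wnt7a and 70.3 for Wnt8b. Wnt5a and Wnt8a, both marked in 7 libraries, differed in their median percentile of total signal. Their ranges overlapped, at 16.7 to 52.6 and 3.32 to 76.3, and the difference was not tested. Wnt7b held between percentiles of 81.9 and 95.6 in every library. Wnt11 was at or above 85.1 in 11 libraries and at 17.5 in replicate 2 of B6 without vitamin C, the shortest list. Wnt8a was at percentiles of 3.32 and 12.0 in the libraries with the shortest peaks and at or above 44.4 in the other 5 marked ones. By maximum signal its peaks in the libraries with the shortest peaks were at 44.7 and 53.7. With each list cut to its 748 strongest peaks, the length of the shortest list, Wnt7b and Wnt11 were still marked in 100% of libraries, Wnt8b in 91.7%, Wnt7a in 75%, Wnt2 in 33.3%, Wnt8a in 16.7%, Wnt2b in 8.33%, and Wnt4, Wnt5a and Wnt5b in 0%.

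**Figure D3:**
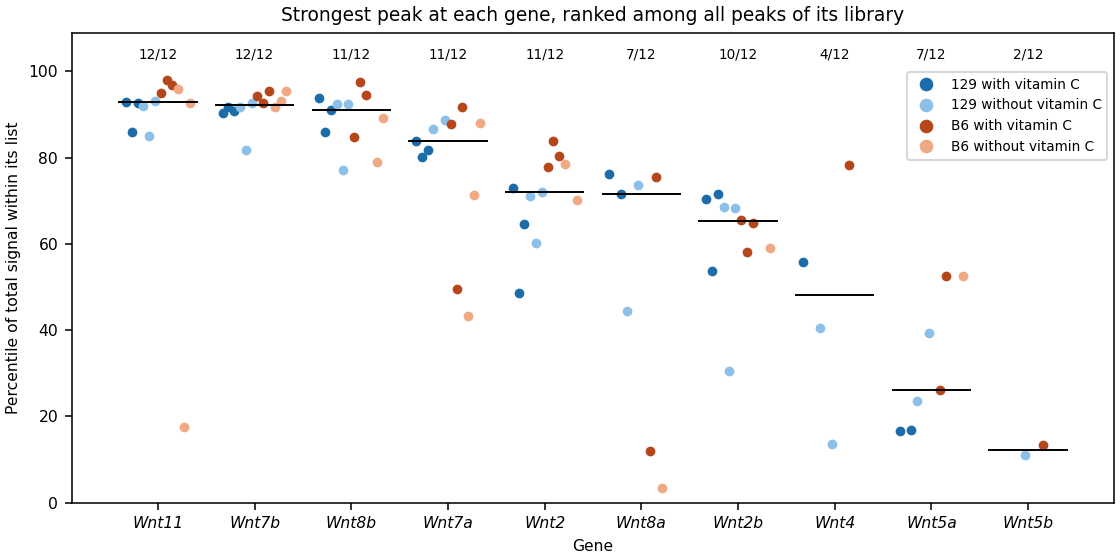
Percentile of total signal of the strongest peak at each gene among all peaks of the same library (y axis), with 1 point per marked library coloured by group, a bar at the median, and the number of marked libraries above. Wnt11, Wnt7b and Wnt8b have medians above 91, and Wnt5b has a median of 12.3.

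Without vitamin C, coverage was lower on average for 9 of the 10 members, and 0 passed the test. The directions of Wnt5a, Wnt5b and Wnt2 turned under another choice of flank, peaks or libraries, and those of Wnt5a, Wnt5b, Wnt2 and Wnt7b on omission of a single library. The differences, without minus with vitamin C over both backgrounds, ran from -23.0 percentage points for Wnt8a to 0.0134 for Wnt5b, with a median of -4.78. Over all 3460 genes marked in at least 2 libraries the median difference was -2.76, and 2941 of them were lower without vitamin C. Wnt2b averaged 19.7% ± 5.18 (SD, n = 6) with and 13.7% ± 10.9 without, with a raw p of 0.155 by the exact permutation test. For Wnt11 the averages were 38.0% ± 4.47 and 31.4% ± 10.9 (exact permutation p = 0.135, the lowest among the members). Wnt8a averaged 41.4% ± 47.1 with and 18.5% ± 24.6 without vitamin C (exact permutation p = 0.275). Wnt8b averaged 54.8% ± 27.4 and 38.7% ± 30.7 (exact permutation p = 0.26). In each of these 4 the larger of the SDs exceeded the difference.

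The test permuted diet labels within each background, as a two-sided test, with 400 relabellings, a smallest possible p of 0.005 and Benjamini-Hochberg adjustment over the 3460 genes. A gene could therefore pass after adjustment only if many others shared that smallest p. By this exact permutation test 0 of 10 members had an adjusted p under 0.05, beside 0% of all genes, and 0 of 10 had an unadjusted p under 0.05, beside 2.05% of all genes, that is 71, all lower without vitamin C. The adjusted p of the members ran from 0.800 to 1. Without replicate 4 of B6 without vitamin C, the unadjusted exact permutation p fell to 0.01 for Wnt2b (a difference of -9.31 percentage points) and to 0.035 for Wnt11 (-9.86). That library had the highest coverage of its group for Wnt2b and Wnt11, so its omission widened both differences by construction. Over the omissions of single libraries, the number of all genes with an unadjusted p under 0.05 for diet ran from 23 to 216.

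Within 129, 8 of 10 members were lower without vitamin C, beside 2309 of the 3460 genes tested. Within B6 all 10 were lower, beside 3139 of the 3460. Wnt2b averaged 15.3% ± 2.75 (SD, n = 3) with and 6.60% ± 11.4 without vitamin C in B6, and 24.1% ± 1.07 with and 20.8% ± 3.61 without in 129. Neither difference can pass, since 3 libraries against 3 cannot reach an exact permutation p below 0.1. The 2 diets did not separate for any member: 0 of 10 were without overlap in 129, beside 4.02% of all genes, and 0 of 10 in B6, beside 3.32%. The diet difference in 129 minus that in B6 had an unadjusted p under 0.05 for 0 of 10 members by exact permutation, beside 0.0867% of all genes, and an adjusted p under 0.05 for 0 of 10, beside 0%. Its unadjusted exact permutation p ran from 0.455 to 0.98 over the members.

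By presence of a peak, 6 of the 10 members had fewer marked libraries without than with vitamin C, and 4 had as many. The matching share over all genes was not counted. List length also differed: B6 lists averaged 3814 ± 1244 peaks (SD, n = 3) with vitamin C and 1840 ± 946 without. Those of 129 averaged 2416 ± 560 with and 2513 ± 979 without. Wnt2b was marked in 6 of 6 libraries with vitamin C and 4 of 6 without, Wnt2, Wnt7a and Wnt8b in 6 and 5, and Wnt5a and Wnt8a in 4 and 3. Wnt4 (2 and 2), Wnt5b (1 and 1), Wnt7b (6 and 6) and Wnt11 (6 and 6) were marked equally often. Of the libraries without vitamin C, replicate 2 of 129 and replicates 1 and 2 of B6 marked the fewest members, at 5, 5 and 4 of 10.

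**Figure D4:**
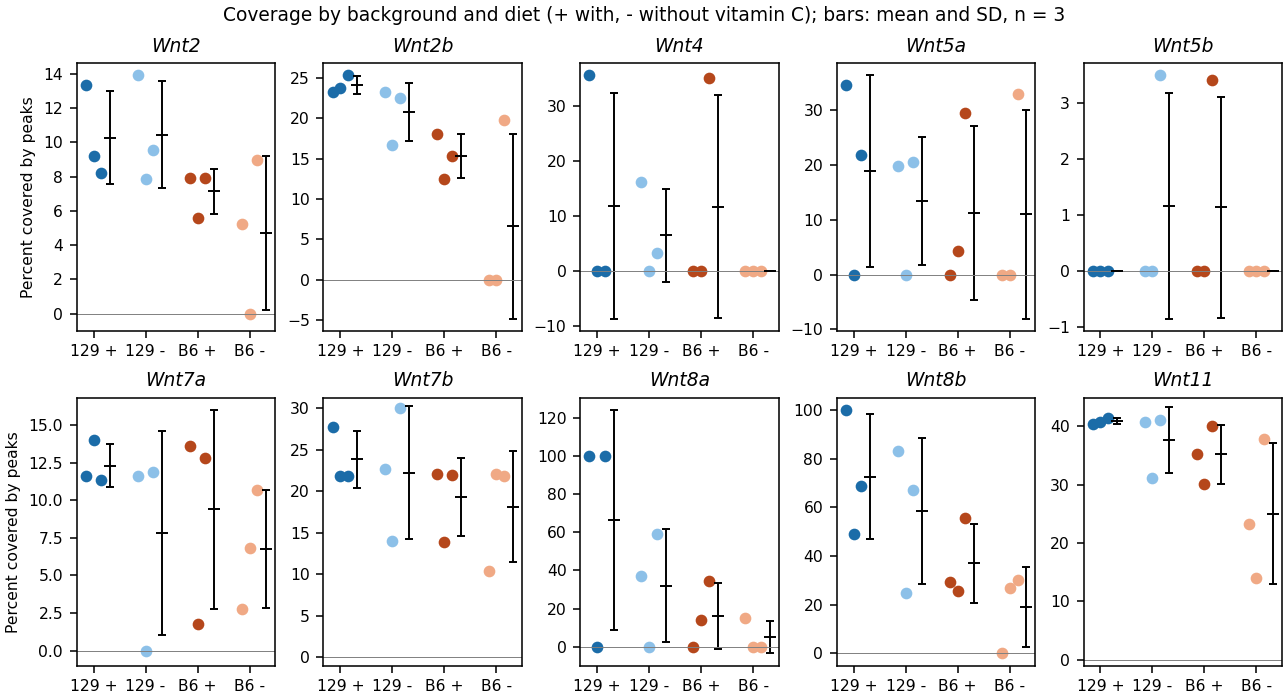
Coverage (y axis, percent of the gene span plus 1 kb at each end) of each gene in the 4 groups of background and diet, with 1 point per library and the mean and SD (n = 3) at the right of each group. The points of the 2 diets overlap in both backgrounds for all 10 genes.

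Between backgrounds, coverage was lower in B6 for all 10 members, as it was for 3142 of the 3460 genes. The difference turned under at least 1 alternative for Wnt2, Wnt4, Wnt5b and Wnt7a, and it was only -0.0134 percentage points for Wnt5b. Wnt2b averaged 22.5% ± 2.99 (SD, n = 6) in 129 and 11.0% ± 8.84 in B6 (exact permutation p = 0.01). Wnt2 averaged 10.4% ± 2.62 and 5.94% ± 3.25 (exact permutation p = 0.02), and Wnt8b 65.5% ± 26.2 and 28.0% ± 17.7 (exact permutation p = 0.03). These 3 of 10 members had an unadjusted p under 0.05, beside 16.9% of all genes (584, of which 582 were lower in B6). After adjustment 0 of 10 passed, beside 0% of all genes, and the lowest adjusted exact permutation p among the members was 0.243. Wnt11 averaged 39.3% ± 4.00 in 129 and 30.1% ± 9.91 in B6 (exact permutation p = 0.05). Wnt8a averaged 49.4% ± 45.3 and 10.6% ± 13.7 (exact permutation p = 0.095), where the SD in 129 was close to the mean.

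The median difference of the members, B6 minus 129, was -4.73 percentage points, beside -5.32 over all genes. The complete separation of the 6 libraries of 129 from the 6 of B6 was seen for 0 of 10 members, beside 0.549% of all genes. Narrower peaks went with B6 in general, as the median widths above show, and their part in these differences was not tested. Without the 2 libraries of short peaks, the exact permutation p was 0.08 for Wnt2 (-4.16 percentage points) and 0.09 for Wnt8b (-30.0). The call for Wnt2 at the unadjusted threshold ended on omission of replicate 1 or 3 of 129 without vitamin C, replicate 2 of B6 with or replicate 2 of B6 without (exact permutation p = 0.07, 0.06, 0.055 and 0.07). That for Wnt8b ended on omission of replicate 1 of 129 without, replicate 1 or 2 of B6 with or replicate 1 of B6 without (exact permutation p = 0.055, 0.05, 0.055 and 0.055). That for Wnt2b held on omission of any single library, with exact permutation p between 0.005 and 0.045. With embryos that share a pregnancy code averaged, the exact permutation p was 0.075 for Wnt2 and 0.075 for Wnt8b, and with labels permuted within sex it was 0.0833 for Wnt8b. With peaks below the median of maximum signal in each list left out, the exact permutation p was 0.1 for Wnt2 and 0.065 for Wnt2b. By presence of a peak alone, the exact permutation p was 1 for Wnt2, 0.4 for Wnt2b and 1 for Wnt8b. With lists of equal length, the difference of Wnt2 turned to 2.37 percentage points (exact permutation p = 0.35) and that of Wnt2b was -4.22 (exact permutation p = 1).

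Set beside the unpaired genes, the 8 linked Wnt genes were marked more evenly. All 8 reached 10 libraries or more, and Wnt3a, with 11, was the only member of this list that fell short of 12. Mean coverage had a median of 38.3% over the linked genes and 15.2% over the unpaired genes. The median over all genes marked in at least 2 libraries was 8.68%. The contrast of the 2 lists was not tested. Coverage depends on gene length, and the lists were not matched for it. Linked genes also lie close together, so that a peak can count for both genes of a pair. The spans of Wnt3 (chr11:103774175-103818021) and Wnt9b (chr11:103727362-103775272) overlap. Wnt10a reached 92.6% ± 13.0 (SD, n = 12), Wnt1, the organiser signal of the midbrain border, 86.7% ± 22.6, and Wnt10b 83.8% ± 25.0. In the shortest list 7 of the 8 linked genes were marked and 4 of the 10 unpaired ones.

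The remaining genes of the pathway were grouped by role, and differences between roles were not tested. For comparison, 4427 of all 21900 protein-coding genes had a peak in some library, and 5.93% had one in at least 10. Of 9 genes for cytoplasmic transducers 0 had a peak in any library, and of 16 receptors and co-receptors 6 had a peak in some library and 0 in at least 10. Lrp5, Lrp6, Ror1, Ror2, Ryk and Ptk7 had none. Of 13 secreted inhibitors 4 were marked in at least 10 libraries, among them Notum, an enzyme that inactivates Wnt proteins, at a mean coverage of 76.4% ± 20.4 (SD, n = 12), and Sost, a blocker of Lrp5 and Lrp6, at 74.5% ± 34.6. The other 2 were Dkk2 and Sfrp5, which also act on the co-receptors or bind Wnt proteins directly. Among 9 R-spondin and receptor turnover genes 2 reached 10 libraries, Rspo1 and Lgr6. Of 12 nuclear factors and targets 3 did so, namely Pygo1, Sp5 and Nkd2, while Axin2, Lef1 and Tcf7l2 had no peak. Of 8 planar polarity genes and 2 secretion genes 0 reached 10 libraries.

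Counted together with the linked Wnt genes, the pathway genes other than the members numbered 77. Of these, 17 reached 10 libraries or more, beside 5.93% of all genes. Without the linked Wnt genes, 9 of 69 did so. No peak in any library was found for 39 of the 77, beside 17473 of all 21900 genes. Peaks in at least 2 libraries, the condition for the test, were found for 32 of the 77. By the exact permutation test 0 of these 32 had an unadjusted p under 0.05 for diet, beside 2.05% of all genes tested, and 6 had one for background, beside 16.9%. All 6 (Wnt3, Wnt9a, Dkk2, Notum, Sost and Nkd2) were lower in B6, and 0 passed after adjustment. The largest differences in marked libraries between diets were those of Fzd5, a Frizzled receptor of the eye and forebrain, with 3 libraries with vitamin C and 0 without, of Pygo1, a cofactor of β-catenin, with 6 and 4, and of Sfrp4, a secreted inhibitor, with 3 and 1. Wnt2b, with 6 and 4, showed the same difference as Pygo1. No pathway gene was marked in more libraries without vitamin C than with it, and the matching share over all genes was not counted.

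Start sites were listed for 7 of the 10 members, with 10 start sites in all, and the letters of the 300 bases around each (250 before and 50 after) were read from RefSeq. The windows of Wnt4, Wnt5b (first start), Wnt11 (first start), Wnt2b and Wnt7a held 51, 47, 45, 43 and 42 CpG dinucleotides, and that of Wnt2 held 27. The median over all 32851 windows was 7, and over the 866 windows under a peak in at least 10 libraries it was 19, with quartiles of 11 and 28. Wnt4 and the first start of Wnt5b thus had more CpG dinucleotides than the windows of Wnt2, Wnt2b, Wnt7a and Wnt11, yet lay under a peak in 4 and 2 libraries, while those 4 did so in 11, 10, 10 and 11. The window of Wnt8b, by contrast, held 6 and lay under a peak in 3 libraries. The 2 inner starts of Wnt5b held 4 and 7 and lay under a peak in 0 libraries.

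**Figure D5:**
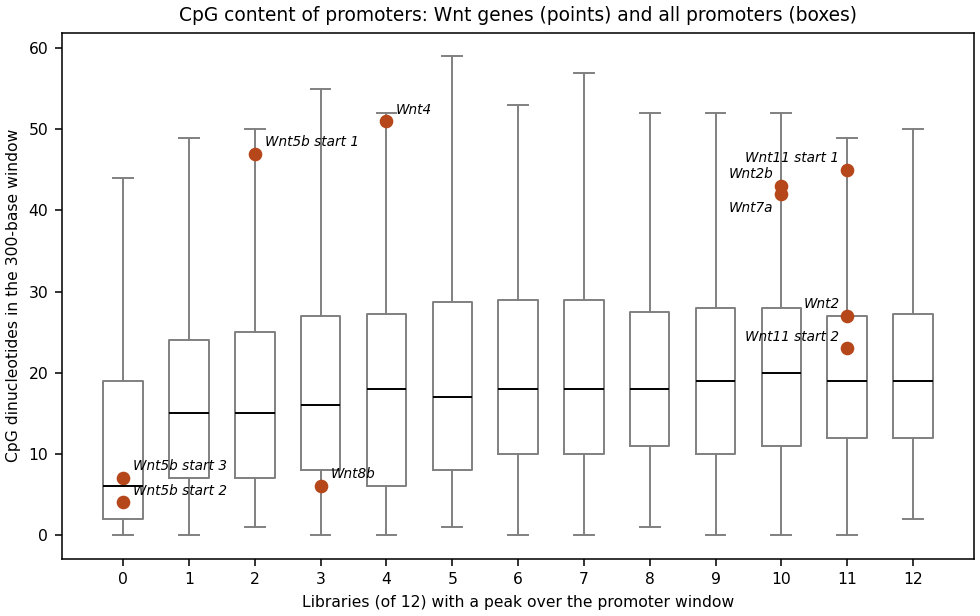
Number of CpG dinucleotides in the 300 bases around each start site (y axis) against the number of libraries with a peak over that window (x axis). Boxes give the median and quartiles of all promoters with whiskers to the extremes within 1.5 box lengths, points give the Wnt start sites, and the points of Wnt4 (51) and the first start of Wnt5b (47) stand near the top of the whiskers at 4 and 2 libraries.

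The core letters of the motif bound by Tcf and Lef factors, CTTTGAT, were searched on both strands of these windows. They occurred in the window of Wnt11, where the reverse complement atcaaag begins 51 bases before the start in the run above, and in that of the third start of Wnt5b. Of all 32851 windows 3.73% held them. A match of 7 letters is a description and no evidence of binding.

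For the members marked in 4 to 10 libraries, the genes on other chromosomes with the most similar coverage across the 12 libraries were looked up. Wnt2b was closest to Nwd2 (Pearson r = 0.986) and Slc6a2, the noradrenaline transporter (r = 0.985). Wnt4 was closest to Cacng4 (r = 0.992) and Foxp2 (r = 0.976), which were marked in 3 and 5 libraries, and Wnt5a to Gpr101 (r = 0.984) and Rims1 (r = 0.973). Wnt8a was closest to Tpm2 (r = 0.965) and Ssbp4 (r = 0.954). These are the highest values among all genes over 12 points that share the length and peak width of each list, and they are given as a description.

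Lineage genes were looked up in the same lists as a check of the labelled tissue. Of 5 neural plate genes, Hesx1 was marked in 0 libraries, Sox2 in 2, Otx2 in 3, Sox3 in 6 and Sox1 in 10. Of 4 cranial mesenchyme genes, Prrx2 was marked in 1 library, Prrx1 in 8, Twist1 in 9 and Tcf21 in 11. Of 4 surface ectoderm genes, Krt8 was marked in 1, Epcam in 2, Cdh1 in 3 and Grhl2 in 8. Among 4 foregut endoderm genes, Cer1 was marked in 0, Hhex in 10 and Foxa2 and Sox17 in 11 each. The lists of other lineages were split in the same way. In the heart list Tnnt2 was marked in 0 libraries, Myl7 in 2 and Nkx2-5 and Hand2 in all 12. In the blood and vessel list Gata1 and Cdh5 were marked in 0, Kdr in 10 and Tal1 in 12, and in the skeletal muscle list Myog and Myf5 in 0, Ckm in 9 and Myod1 in 12. Genes without a peak thus occurred in the neural plate, foregut endoderm, heart, blood and vessel, and skeletal muscle lists. These counts neither identify the tissue nor give the share of each cell type.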

How the data were processed

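Peak lists of 12 H3K27me3 CUT&Tag libraries, 3 for each background and diet, were used out of 18 samples; 4 IgG samples and 2 further B6 samples were not analysed here. Per the submitters' processing notes, the authors used cutadapt, Bowtie2, Picard and SEACR with mm10; neither version nor setting is given in the sources used here. The deposited signal values, a total and a maximum per peak, were made by the authors for each library on its own, with no common scale stated, and served only to rank peaks within a list. The lists hold 31753 peaks in all, and read depth is unknown, so no counting interval can be given.

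Gene positions, start sites and promoter letters came from RefSeq tables of GRCm38.p6, the assembly that mm10 stands for. Coordinates are 1-based, and an overlap of 1 bp counted as a peak. Percent covered was computed for 21900 protein-coding genes, and 3460 genes with a peak in at least 2 libraries were tested by exact, two-sided permutation of diet within background, or background within diet, with Benjamini-Hochberg adjustment and a threshold of 0.05. The number of relabellings was 400 (20 within a single background). Some alternatives had fewer, so their p is coarser and a change across the threshold can come from this alone. The number was 200 on omission of a library and, without the libraries of short peaks, 120 for diet and 100 for background. It was 80 with embryos of a shared pregnancy code averaged and 144 within sex strata. Each replicate is a separate embryo per the labels. The replicates have no number in the labels, so nothing pairs samples across groups. The tests were checked on simulated data. Alternatives were other flanks, peak filters, equal lists, presence, no gene filter, omission of libraries, averaging embryos with a shared pregnancy code, and sex strata.

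Named genes are the 10 members, genes sharing their peaks, the linked Wnt genes, the 5 pathway genes with the largest mean coverage, the 3 with the largest difference in marked libraries between diets in each direction, and for members marked in 4 to 10 libraries the 2 most similar genes. Further pathway and lineage genes were named from their lists after their values were seen. The members, lists and tests were chosen with earlier results of these data known. Matplotlib 3.10.9, pandas 2.3.3 and NumPy 2.4.6 were run under Python 3.11.15.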

Additional observations from a re-analysis of the deposited data

How the results depend on the processing

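The number of genes with an adjusted p under 0.05 was 0 for diet, for background and for their interaction under all alternatives run. A gene could pass only if many others shared the smallest possible p, and some alternatives had fewer relabellings. This count therefore says little about how stable the result is. Over the alternatives and omissions, 197 of 220 member results for diet and 179 of 220 for background kept their direction and their side of the unadjusted threshold. A further 8 and 7 were differences of 0, which have no direction. Some of these outcomes were fixed: dropping the gene filter could change neither a member's difference nor its unadjusted p. Sex strata and averaging embryos of a shared pregnancy code could change only the p. Directions turned, without passing the test, in these cases, given as differences in percentage points. With no flank Wnt5b was at -0.0396 for diet and 0.0396 for background. With peaks at or above the list's median maximum signal Wnt5a was at 3.42 for diet and Wnt4 at 5.86 for background. With equal lists Wnt2 was at 2.35 for diet and 2.37 for background. By presence Wnt7a was at 16.7 for background. Without the libraries of short peaks Wnt5b was at -0.271 for diet and 0.271 for background, and Wnt7a at 0.915 for background. On omission of single libraries the diet difference ran from -8.28 to 1.76 for Wnt5a, from -3.35 to 0.658 for Wnt7b, from -2.18 to 0.0639 for Wnt2 and from -0.568 to 0.582 for Wnt5b, and the background difference from -9.18 to 2.62 for Wnt4 and from -0.582 to 0.568 for Wnt5b. For Wnt8a the background difference passed the unadjusted threshold without replicate 2 of 129 with vitamin C or replicate 2 of 129 without (exact permutation p = 0.02 and 0.045), and for Wnt11 without replicate 4 of B6 with or replicate 4 of B6 without (exact permutation p = 0.03 and 0.005). For Wnt11 it also passed with no flank (exact permutation p = 0.025). It ended for Wnt2 and Wnt2b with peaks at or above the median maximum signal (exact permutation p = 0.1 and 0.065), for Wnt2 and Wnt8b with embryos of a shared pregnancy code averaged (exact permutation p = 0.075 for both), and for Wnt8b within sex strata (exact permutation p = 0.0833). The cause was not tested.

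The number of genes without overlap of the diets in 129 was 139, and it was 69 with peaks at or above the median maximum signal, 71 with equal lists and 3 by presence. In B6 it was 115, and it was 27 with equal lists and 68 by presence. On omission of 1 library it ran from 174 to 418 in 129 and from 117 to 1026 in B6, where groups of 2 and 3 separate more easily by construction. Over all genes, the number with an unadjusted p under 0.05 ran from 1 to 93 for diet (71 as reported), from 15 to 688 for background (584) and from 1 to 9 for the interaction (3), lowest by presence except for the interaction, and on omission of a library from 23 to 216, from 297 to 1120 and from 3 to 61. On such omission up to 2 members in 129 and up to 3 in B6 were without overlap of the diets. No paired analysis was possible because the labels carry no replicate number and numbers follow accession order.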
